A study of Mus musculus with 16 samples.

Results

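The genes described here encode the nuclear subunits of the respiratory chain and of ATP synthase, the enzymes of oxidative phosphorylation, in mouse myoblasts grown either dispersed or on their myofibers. Members were chosen by name: every gene on the array whose symbol begins as those of complex I (Ndufa, Ndufb, Ndufc, Ndufs, Ndufv), complex II (Sdh), complex III (Uqcr), complex IV, also called cytochrome c oxidase (Cox4 to Cox8), or complex V, the ATP synthase (Atp5). The rule found 83 of the 34650 gene names on the array, read by 122 probes. By name, 37 members were counted under complex I, 4 under complex II, 8 under complex III, 18 under complex IV and 16 under complex V. Ndufa4, now placed in complex IV, and its paralog Ndufa4l2 thus counted for complex I, and the supercomplex factor Cox7a2l for complex IV. One of the 83 members, Atp5c1-ps, is a pseudogene by name and not a subunit. The filter on low signal kept 81 of the 83, and left out Cox7b2 and Cox8c, which were not well above background on any of the 16 arrays.

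Complexes I and II pass electrons from NADH and succinate to ubiquinone, complex III passes them to cytochrome c, and complex IV hands them to oxygen. The proton gradient that complexes I, III and IV build drives ATP synthesis by complex V. Most subunits are encoded in the nucleus and used by every cell, but cytochrome c oxidase has subunits with tissue isoforms. In adult heart and skeletal muscle, Cox6a2, Cox7a1 and Cox8b take the place of the widely expressed Cox6a1, Cox7a2 and Cox8a. A smaller set of core subunits is encoded by mitochondrial DNA and was not matched by the rule.

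The study asked how muscle satellite cell-derived myoblasts change between 48 and 72 hr after isolation, with and without their niche. Male C57Bl/6J mice aged 11 to 13 weeks gave 4 groups of 4 one-color Agilent arrays. The groups were dispersed myoblasts at 48 hr, dispersed myoblasts at 72 hr, myofiber-associated myoblasts at 48 hr and myofiber-associated myoblasts at 72 hr, with no genetic change and no drug in any of them. Myofiber-associated myoblasts were stripped from cultured single myofibers by washing and trypsin, from 2 mice per preparation, and replicate 10 at 48 hr was a pool of 2 preparations, whereas each dispersed preparation came from 1 mouse.

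On every array 54.0% to 63.5% of probes were well above background and no gene spot was saturated. Myod1, which marks myoblasts, had group means of 14.41 to 15.32 in log2 signal. Pax7 had means of 11.07 (48 hr) and 11.26 (72 hr) in dispersed myoblasts, and 10.21 and 11.89 in myofiber-associated myoblasts. Myf5 had means of 6.98 and 7.29 in dispersed and 6.35 and 6.94 in myofiber-associated myoblasts. At 48 hr Myod1 was higher in the myofiber-associated group, 14.69 against 14.41, whereas Pax7 and Myf5 were lower there. Genes of the adult muscle fiber were measured too. All 21 adult fiber markers were above background on all 8 myofiber-associated arrays, as were 20 of the 21 on all dispersed arrays of 48 hr and 19 on all of 72 hr. At 48 hr 20 of 21 were called higher in myofiber-associated than in dispersed myoblasts, beside 16.1% of all genes. Summed over the list, their signal on the log2 scale ranged from 16.81 to 17.40 (48 hr) and from 16.61 to 16.81 (72 hr) on the dispersed arrays. On the myofiber-associated arrays the same sum ranged from 21.49 to 21.92 (48 hr) and from 19.56 to 21.45 (72 hr). One slide held the dispersed arrays and another the myofiber-associated arrays, so that culture and slide cannot be told apart, and within each slide the times sat in separate columns (72 hr in the first pair, 48 hr in the second), so that time and column cannot be told apart either.

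Promoters of isoform pairs are shown first, since the results turn on the contrast between muscle isoforms and their partners. The sequences run from 250 bases before to 30 bases after the start of transcription, from RefSeq on GRCm38.p6. In the promoters of 2 muscle isoforms the capitals mark E-boxes (CANNTG), a broad motif that includes the sites bound by MYOD1 and MYOG.
Cox7a1 (chr7:30183921-30184200, plus strand): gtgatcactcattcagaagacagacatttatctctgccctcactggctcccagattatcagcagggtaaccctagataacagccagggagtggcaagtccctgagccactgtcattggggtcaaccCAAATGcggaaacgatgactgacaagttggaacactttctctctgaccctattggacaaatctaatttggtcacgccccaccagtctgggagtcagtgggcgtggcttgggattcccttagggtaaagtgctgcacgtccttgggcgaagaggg
Cox8b (chr7:140900417-140900696, minus strand): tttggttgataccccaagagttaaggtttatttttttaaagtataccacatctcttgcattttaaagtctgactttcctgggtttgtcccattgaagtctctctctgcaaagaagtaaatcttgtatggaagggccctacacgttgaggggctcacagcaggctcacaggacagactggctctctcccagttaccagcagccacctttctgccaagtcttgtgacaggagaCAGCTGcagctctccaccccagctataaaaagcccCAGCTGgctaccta
In the promoters of 2 widely expressed partners the capitals mark CCGGAAG, a motif of the ETS factor GABP, and the core GCATGCGC of the NRF-1 motif, each on either strand.
Cox6a1 (chr5:115348929-115349208, minus strand): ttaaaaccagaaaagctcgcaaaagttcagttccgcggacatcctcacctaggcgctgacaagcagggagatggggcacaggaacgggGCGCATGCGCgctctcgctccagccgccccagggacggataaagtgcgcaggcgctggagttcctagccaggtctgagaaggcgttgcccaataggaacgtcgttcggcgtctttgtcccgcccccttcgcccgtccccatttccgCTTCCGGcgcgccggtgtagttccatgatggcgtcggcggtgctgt
Cox8a (chr19:7217587-7217866, minus strand): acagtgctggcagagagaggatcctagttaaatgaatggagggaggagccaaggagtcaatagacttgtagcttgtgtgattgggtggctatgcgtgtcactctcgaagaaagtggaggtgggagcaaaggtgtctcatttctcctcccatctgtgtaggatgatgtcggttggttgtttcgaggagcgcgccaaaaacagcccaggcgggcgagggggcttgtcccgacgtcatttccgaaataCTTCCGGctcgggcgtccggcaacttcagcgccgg
Both E-boxes of Cox8b read CAGCTG, the myogenic form, whereas the E-box of Cox7a1 reads CAAATG and is not of that form. The NRF-1 cores in Cox6a1 overlap, being the same palindromic stretch read on both strands. E-boxes were common, in 70.1% of the 32851 promoters of the table and in 46 of the 68 promoters of widely expressed members. CAGCTG lay in 14.9% of all promoters and in 5 of the 68. CCGGAAG lay in 8.45% of all promoters and in 16 of those 68, and the NRF-1 core in 2.58% of all and in 9 of the 68. AAGGTCA, the motif of the estrogen-related receptors, lay in 4.46% of all and in 6 of the 68. None of these last 3 motifs lay in the promoters of Cox7a1 and Cox8b in this window, nor in that of the partner Cox7a2. The Cox7a2 promoter is not shown, and Cox6a2 had no promoter in the table. E-boxes were not capitalized in the partners, where Cox7a2 held 1 at position -35, Cox8a 1 at -102 and Cox6a1 none. The capitals therefore do not compare muscle isoforms with partners motif by motif. The table held promoters for 67 of the 83 members, and several for some of them.

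Cox6a2, the muscle isoform of subunit VIa, was lower at 72 hr than at 48 hr in dispersed myoblasts. Its normalized log2 signal was 10.77, 10.38, 10.37 and 9.73 in replicates 1 to 4 at 48 hr, and 8.84, 8.67, 8.44 and 7.86 in replicates 5 to 8 at 72 hr. No array of 72 hr reached the lowest of 48 hr. The difference was -1.86 ± 0.27 (SE, n = 4 against 4), a 3.64-fold fall, with an adjusted p of 0.00185 in limma. In myofiber-associated myoblasts Cox6a2 read 17.27, 16.73, 17.38 and 16.15 in replicates 7 to 10 at 48 hr, and 13.93, 15.66, 13.29 and 16.18 in replicates 1 to 4 at 72 hr. The difference was -2.12 ± 0.64, with an adjusted p of 0.046, which did not pass the threshold of 0.01. At 72 hr replicates 2 and 4 were high and replicates 1 and 3 low, and replicate 4 overlapped the 48-hr arrays.

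Cox8b, the muscle isoform of subunit VIII, gave nearly the same picture. In dispersed myoblasts it read 10.04, 9.50, 9.44 and 8.72 at 48 hr and 7.85, 7.84, 7.76 and 6.97 at 72 hr. It fell by 1.82 ± 0.30 on the log2 scale, 3.54-fold, with an adjusted p of 0.00366 in limma, and the groups did not overlap. The call was lost without replicate 2, 3 or 7, where the adjusted p lay between 0.0108 and 0.0134. In 1 fit of all 16 arrays, whose spread includes that of the myofiber-associated groups, the dispersed falls of Cox6a2 and Cox8b had adjusted p of 0.0359 and 0.0416 and were not called. In myofiber-associated myoblasts it read 16.61, 15.95, 16.61 and 15.42 at 48 hr and 13.35, 15.17, 12.77 and 15.52 at 72 hr, a difference of -1.94 ± 0.63 with an adjusted p of 0.0559. Again replicates 2 and 4 of 72 hr were the high ones.

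Cox7a1, the muscle isoform of subunit VIIa, moved less in dispersed myoblasts. Its values there were 10.09, 9.88, 9.91 and 9.80 at 48 hr against 9.61, 9.64, 9.61 and 9.70 at 72 hr. The groups did not overlap, but the difference of -0.28 ± 0.06 had an adjusted p of 0.0149 and was not called. In myofiber-associated myoblasts Cox7a1 read 15.90, 15.11, 15.85 and 14.76 at 48 hr and 12.74, 14.42, 12.42 and 14.93 at 72 hr, a difference of -1.78 ± 0.58 with an adjusted p of 0.0574. For all of the muscle isoforms the change over time was not called different between the cultures by the comparative ratio, the dispersed change over the myofiber-associated change, with adjusted p of 0.824 for Cox6a2, 0.11 for Cox7a1 and 0.92 for Cox8b in limma.

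**Figure D1:**
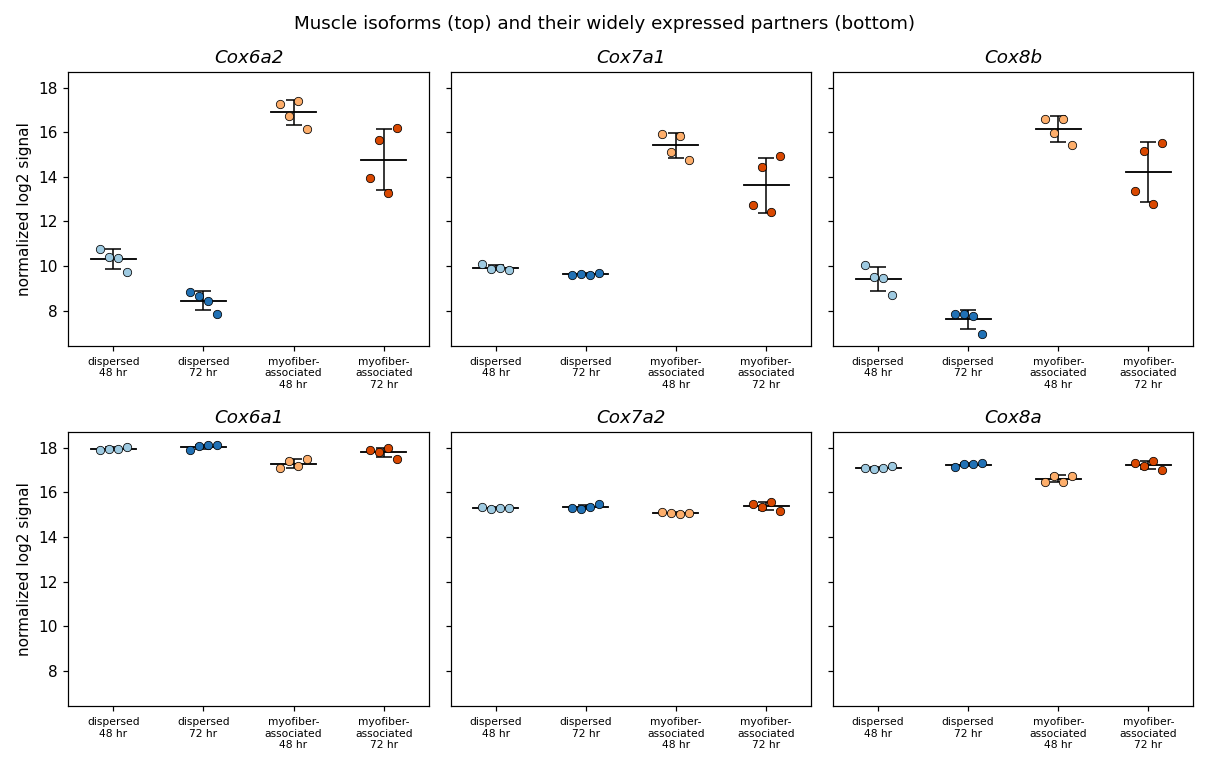
Normalized log2 signal of the 3 muscle isoforms of cytochrome c oxidase (top) and their widely expressed partners (bottom), 1 point per array in replicate order from left to right, with the mean and SD of the 4 arrays of each group. The muscle isoforms lie far higher in myofiber-associated than in dispersed myoblasts and spread most at 72 hr there. In dispersed myoblasts Cox6a2 and Cox8b are lower at 72 than at 48 hr, whereas the partners move little. In myofiber-associated myoblasts the partners are higher at 72 than at 48 hr without overlap of the arrays, though none of these differences was called.

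The partners did not fall. Cox6a1, with group means between 17.29 and 18.05, differed by 0.08 ± 0.06 between 72 and 48 hr in dispersed myoblasts and by 0.51 ± 0.14 in myofiber-associated myoblasts, with adjusted p of 0.358 and 0.0359. Cox7a2 differed by 0.06 ± 0.06 and 0.29 ± 0.10, and Cox8a by 0.13 ± 0.05 and 0.62 ± 0.12, the last with an adjusted p of 0.0126. None of these differences passed the threshold. Cox8a in myofiber-associated myoblasts read 16.47, 16.73, 16.47 and 16.75 at 48 hr and 17.31, 17.16, 17.43 and 17.01 at 72 hr, so that its highest 72-hr arrays, replicates 1 and 3, were those where the muscle isoforms were lowest.

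The change of each muscle isoform relative to its partner was tested within each array, by an exact two-sided permutation test over arrays. With 4 arrays against 4 the smallest p this test can give is 0.0286, and the 6 tests were adjusted together. A pair passed here at an unadjusted exact p under 0.05. The threshold of 0.01 used for the limma calls was out of reach of this test. In dispersed myoblasts the log2 ratio changed by -1.94 for Cox6a2 over Cox6a1, by -0.34 for Cox7a1 over Cox7a2 and by -1.95 for Cox8b over Cox8a. Each of these reached that smallest exact p, with an adjusted p of 0.0429, and the ratio was lower on 4 of 4 arrays of 72 hr than on any array of 48 hr. In myofiber-associated myoblasts the changes were larger, -2.63, -2.07 and -2.57, but so was their spread. Only Cox8b over Cox8a separated the arrays completely there, with an exact permutation p of 0.0286 and an adjusted p of 0.0429, and the other pairs had an exact permutation p of 0.0571. Without myofiber-associated replicate 4 of 72 hr both of those pairs reached 0.0286, with changes of -3.20 and -2.58, and the Cox8b pair no longer passed without replicate 7 or 9 of 48 hr, with an exact permutation p of 0.0857, or without replicate 8 or 10 of 48 hr or replicate 3 of 72 hr, with 0.0571. In dispersed myoblasts the Cox8b pair had an exact permutation p of 0.0571 without replicate 8 of 72 hr, with a change of -1.72. These isoforms share their arrays, and the pairs are not independent of each other.

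Adult fiber genes had lower means at 72 hr for 17 of 21 in dispersed and 21 of 21 in myofiber-associated myoblasts. In dispersed myoblasts 10 of 21 were called lower and 1, the calcium release channel gene Ryr1, higher at 72 hr, with a median log2 difference of -1.44. Of all genes 6.35% were called lower and 7.38% higher there. In myofiber-associated myoblasts the median was -1.78, but only Myh2, the myosin of fast oxidative fibers, was called. The summed fiber signal in the 4 myofiber-associated arrays of 72 hr was 20.01, 21.22, 19.56 and 21.45, which is the array order of Cox6a2, Cox7a1 and Cox8b. At 48 hr it was 21.92, 21.68, 21.89 and 21.49, and there too replicate 10 was lowest for each muscle isoform. The part of fiber RNA in these differences was not tested, and fewer fiber cells or fragments cannot be told apart from less RNA in each. The study describes its myofiber-associated preparations as highly pure and free of myofiber RNA.

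The cultures differed far more in the muscle isoforms than either did over time. At 48 hr myofiber-associated myoblasts exceeded dispersed myoblasts by 6.57 ± 0.31 in log2 signal for Cox6a2, 95.2-fold, by 6.72 ± 0.34 for Cox8b, 105-fold, and by 5.48 ± 0.25 for Cox7a1, 44.8-fold. The adjusted p in limma was 2.48e-06, 3.3e-06 and 2.43e-06. At 72 hr the differences were 6.31 ± 0.62, 6.60 ± 0.61 and 3.99 ± 0.53, and all passed the threshold. For comparison, the 21 adult fiber markers had a median difference of 5.94 at 48 hr and of 5.24 at 72 hr. Every myofiber-associated array exceeded every dispersed array for each of the muscle isoforms. The widely expressed isoforms went the other way at 48 hr: Cox6a1 was lower by -0.68 ± 0.10 and Cox8a by -0.50 ± 0.09 in myofiber-associated myoblasts, both called, while Cox7a2, at -0.20 ± 0.06, had an adjusted p of 0.0226. At 72 hr none of the partners was called.

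Few members of the whole set were called over time. In dispersed myoblasts 2 of the 81 tested members were called higher and 3 lower at 72 hr, where 7.38% and 6.35% of all 20237 tested genes were called higher and lower. In myofiber-associated myoblasts 1 was called higher and 1 lower, against 3.74% and 1.77% of all genes. No member was called in the comparative ratio, where 1.1% of genes were called higher and 2.37% lower by limma, although 23 of the 81 had an unadjusted p under 0.05. The authors' deposited ratios of 72 to 48 hr gave 18 called members when the cultures were compared, where 1634 of all genes were called higher and 2168 lower. The fit of these ratios left out the spread of the 48-hr arrays. Leaving out the pooled replicate 10 gave 9, with 1011 of all genes called higher and 1342 lower, against 222 and 480 with all arrays. Leaving out dispersed replicate 1 of 48 hr or myofiber-associated replicate 4 of 72 hr gave 1 and 2. Of all genes 115 and 631 were then called higher and 313 and 1128 lower. The 5 calls in dispersed myoblasts became 2 without replicate 2 or 3 and 3 without replicate 5, 6 or 7. Of all genes 864 to 936 were then called higher and 805 to 916 lower, against 1493 and 1285 with all arrays. The 2 calls in myofiber-associated myoblasts became 1 without replicate 7, 8 or 9 of 48 hr or replicate 1 or 2 of 72 hr. There 185 to 341 of all genes were called higher and 45 to 182 lower, against 756 and 358 with all arrays. The 74 widely expressed members all lay between -0.09 and 0.26 in the dispersed change, with a median of 0.06, where all genes had a median of 0.02. In the myofiber-associated change they lay between -0.51 and 0.62, with a median of -0.04 against 0.06 for all genes.

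Ndufa4, a widely expressed subunit first assigned to complex I and now placed in cytochrome c oxidase, was the only widely expressed member called over time. Its mean in dispersed myoblasts went from 14.96 ± 0.03 (SD, n = 4) to 15.22 ± 0.09 (SD, n = 4), and the arrays of the different times did not overlap. The rise of 0.26 ± 0.05 had an adjusted p of 0.00949, close to the threshold, and was called in 5 of 17 other settings. In myofiber-associated myoblasts the difference was 0.13 ± 0.15 and was not called.

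**Figure D2:**
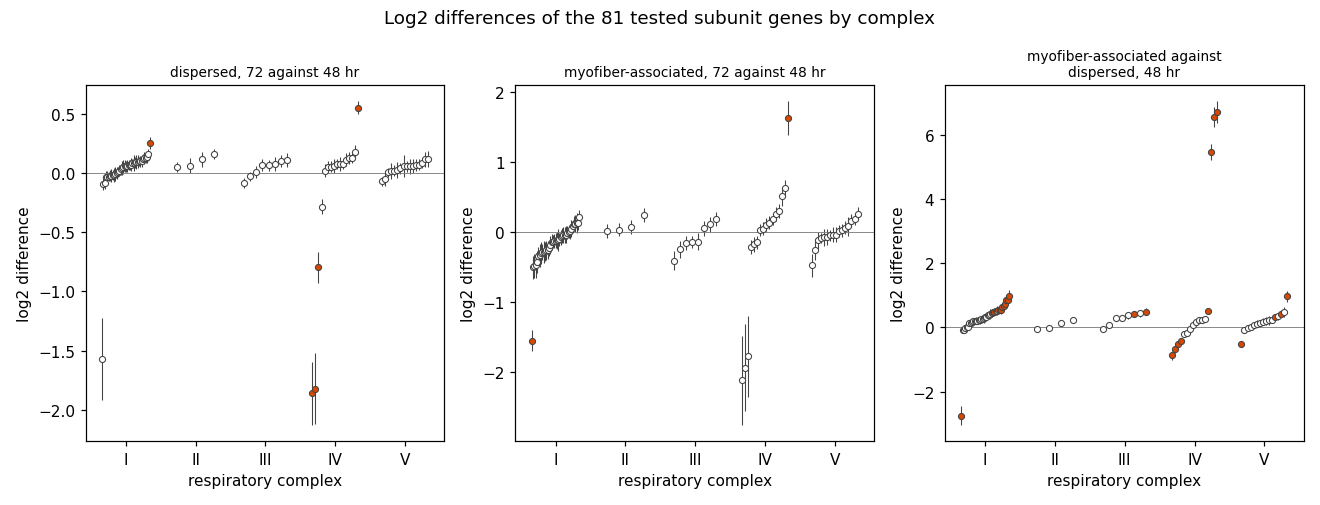
Log2 differences of the 81 tested members by complex, each with its SE from limma and ordered by size within its complex, with filled points for an adjusted p under 0.01. Over time nearly all widely expressed subunits lie near 0, the lowest points of complex IV are the muscle isoforms and, in dispersed myoblasts, Cox4i2, and between cultures at 48 hr most subunits of complexes I and III lie above 0. The vertical scales differ between panels.

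More members were called between the cultures than over time. Of all 81 tested members 22 were called higher and 6 lower, where 16.1% of all genes were called higher and 27.1% lower. At 72 hr 11 were called higher and 1 lower, against 11.6% and 15.6% of all genes. The median difference of the widely expressed members was 0.24 at 48 hr and 0.16 at 72 hr, when all genes had medians of -0.12 and -0.02. The count at 48 hr rested in part on 1 array, being 46 without the pooled replicate 10, and the count of all genes moved with it. Without that array 4316 of all genes were called higher and 6792 lower, against 3262 and 5477 with all arrays. The member count was 17 or 18 without dispersed replicate 1, 2 or 3, where 2412 to 2612 of all genes were called higher and 3904 to 4167 lower. The count of 12 at 72 hr became 6 without dispersed replicate 5, 6 or 7 or myofiber-associated replicate 2. Of all genes 1291 to 1623 were then called higher and 1974 to 2418 lower, against 2339 and 3158 with all arrays.

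Complex I, the NADH dehydrogenase, had 13 of 36 widely expressed genes called higher at 48 hr and none lower, beside 16.1% and 27.1% of all genes. Of the 36 differences 33 were above 0, with a median of 0.34. Among the genes called higher were Ndufv1, which holds the NADH-binding flavin site, by 0.53, and Ndufv2 by 0.50. Accessory subunits called higher at 48 hr included Ndufc1, by 0.87, and Ndufa6, by 0.86.

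Among the widely expressed genes of complex I, Ndufv3 showed the largest difference at 48 hr, 0.99 ± 0.17, but its 3 probes disagreed. The brightest probe differed by 0.99 between cultures at 48 hr, and the other probes by -0.78 and -0.03, so that with the mean of all probes Ndufv3 differed by 0.06 and was not called. Of the 28 genes with several probes above background on all arrays, the probes of 4 differed by more than 0.5 in this comparison, namely Atp5g1, Atp5j, Ndufa3 and Ndufv3, and the median disagreement was 0.16.

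The counts of the other complexes at 48 hr stand beside 16.1% of all genes called higher and 27.1% lower. Complex III had 2 of 8 genes called higher at 48 hr and a median of 0.34. These were Uqcr10, higher by 0.50, and Uqcrq, by 0.43, both small subunits of the cytochrome bc1 complex. Complex II, succinate dehydrogenase, had no call among its 4 genes and a median of 0.06. Complex V had 3 of 15 genes called higher and 1 lower, and a median of 0.18. Atp5e, the epsilon subunit of the central stalk, was higher by 0.97 at 48 hr and 0.43 at 72 hr. Atp5c1, the gamma subunit of the same stalk, was lower at 48 hr by -0.51 ± 0.07, adjusted p 0.000639, but its second probe differed by -0.03 and the mean of both was not called. The pseudogene Atp5c1-ps was not called in any comparison. In the widely expressed genes of complex IV the median was 0.08, with 1 called higher, Cox6c, and 2 lower, Cox6a1 and Cox8a.

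**Figure D3:**
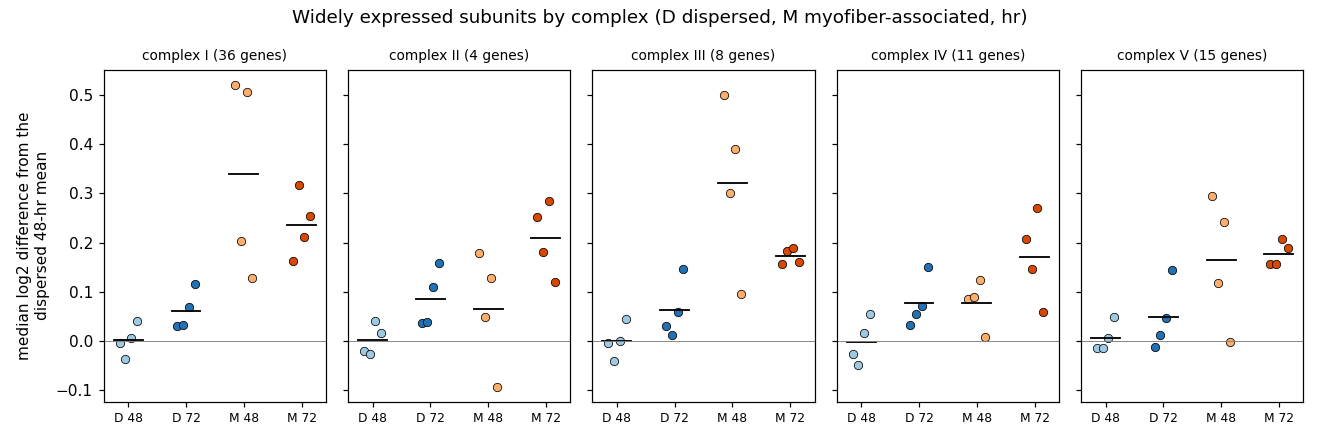
Median log2 difference of the widely expressed subunits of each complex from their mean in dispersed myoblasts at 48 hr, 1 point per array in replicate order, with bars at the mean of 4 arrays. The myofiber-associated arrays of 48 hr span 0.13 to 0.52 in complex I, above all dispersed arrays, and those of complexes II to V overlap the dispersed arrays of 72 hr.

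The 48-hr myofiber-associated arrays were not alike in these subunits. The complex I median was 0.52, 0.20, 0.51 and 0.13 above the dispersed 48-hr mean in replicates 7 to 10, so that replicates 7 and 9 were high and replicate 10, the pool, lowest. Replicates 7 and 9 also held the highest summed fiber signal. At 72 hr the complex I medians were 0.16 to 0.32. Between replicate arrays the SD of a widely expressed member had a median of 0.18 in the myofiber-associated 48-hr group, against 0.08 in the 72-hr group of that culture and 0.05 and 0.06 in the dispersed groups.

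Isoforms other than those of muscle also moved. Cox6b2, known as the testis isoform of subunit VIb, rose in both cultures. In dispersed myoblasts it read 8.53, 8.51, 8.51 and 8.63 at 48 hr and 9.13, 8.99, 9.17 and 9.14 at 72 hr, a difference of 0.56 ± 0.05 with an adjusted p of 0.000301, which became 0.0721 in the fit of all 16 arrays. In myofiber-associated myoblasts it read 7.92, 8.25, 8.19 and 8.18 at 48 hr and 9.97, 9.49, 10.38 and 9.20 at 72 hr, a difference of 1.63 ± 0.24, 3.09-fold, with an adjusted p of 0.0047. The latter call was lost without replicate 7, 8 or 9 of 48 hr or replicate 1 or 2 of 72 hr, with adjusted p of up to 0.0194. The groups did not overlap in either culture, and the highest arrays of 72 hr were replicates 1 and 3. The difference between the cultures, -1.07 ± 0.26, had an adjusted p of 0.0177 and was not called. At 48 hr Cox6b2 was lower by -0.41 ± 0.09 in myofiber-associated than in dispersed myoblasts, adjusted p 0.00415. Its widely expressed partner Cox6b1 differed by 0.06 ± 0.05 and 0.18 ± 0.08 over time.

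Cox4i2, the isoform of subunit IV that is induced by low oxygen and found in lung and smooth muscle, fell in dispersed myoblasts. It read 9.24, 9.57, 9.56 and 9.90 at 48 hr and 8.62, 8.79, 8.88 and 8.80 at 72 hr, a difference of -0.79 ± 0.13 with an adjusted p of 0.00352, which became 0.0114 to 0.0127 without replicate 2, 3, 5 or 6. In myofiber-associated myoblasts it read 8.53, 8.85, 8.75 and 8.68 at 48 hr and 8.47, 8.59, 8.52 and 8.63 at 72 hr, and the difference of -0.15 ± 0.09 was not called. At 48 hr it was lower by -0.86 ± 0.14 in myofiber-associated than in dispersed myoblasts, adjusted p 0.00103. Its partner Cox4i1 differed by 0.12 ± 0.06 and 0.25 ± 0.10 over time, not called in either culture.

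Ndufa4l2, a paralog of Ndufa4 known as a target of hypoxia-inducible factor and as a gene of pericytes, was the one member called lower over time in myofiber-associated myoblasts. It read 9.43, 9.89, 9.57 and 10.04 at 48 hr and 8.09, 8.31, 8.10 and 8.21 at 72 hr there, a fall of -1.55 ± 0.14, 2.94-fold, with an adjusted p of 0.000991. In dispersed myoblasts it read 11.64, 12.63, 12.62 and 13.04 at 48 hr and 10.13, 11.13, 11.26 and 11.11 at 72 hr. That difference, -1.57 ± 0.35, was of similar size but more spread, with an adjusted p of 0.0125. Ndufa4l2 was lower in myofiber-associated than in dispersed myoblasts by -2.75 ± 0.29 at 48 hr, 6.73-fold, and by -2.73 ± 0.23 at 72 hr, 6.63-fold, and both were called.

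**Figure D4:**
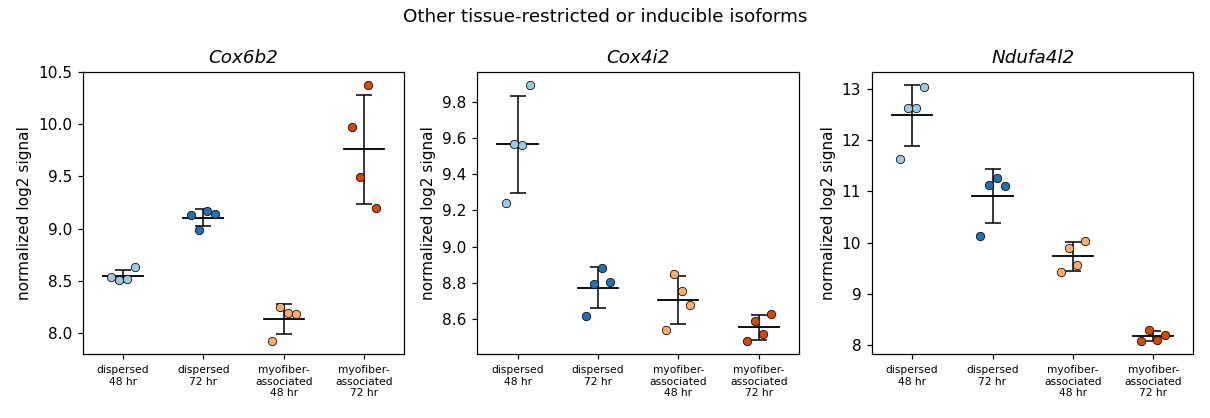
Normalized log2 signal of Cox6b2, Cox4i2 and Ndufa4l2, 1 point per array in replicate order, with the mean and SD of the 4 arrays of each group. Cox6b2 is higher at 72 hr in both cultures without overlap, while Ndufa4l2 is lower at 72 hr and lower in myofiber-associated myoblasts at both times.

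Markers of vessel cells are given beside Cox4i2 and Ndufa4l2. Of all genes 6.35% were called lower and 7.38% higher at 72 hr in dispersed myoblasts, and 1.77% and 3.74% in myofiber-associated myoblasts. Between the cultures 27.1% of all genes were called lower and 16.1% higher in myofiber-associated myoblasts at 48 hr, and 15.6% and 11.6% at 72 hr. Of 10 pericyte and smooth muscle markers 5 were called lower and 1 higher at 72 hr in dispersed myoblasts, with differences from -3.52 to 0.72. Among these differences Rgs5 had -2.11 and Higd1b -1.97. The log2 of the summed list ranged from 14.34 to 14.92 (48 hr) and from 13.89 to 14.49 (72 hr). In myofiber-associated myoblasts 1 was called lower, Myh11, and 1 higher, Notch3, and the sum, which holds the muscle gene Des as well, ranged from 15.995 to 16.57 (48 hr) and from 14.88 to 16.11 (72 hr). Between the cultures 4 of these 10 were called lower and 1 higher in myofiber-associated myoblasts at 48 hr. Their median difference was -0.73, with a range from -3.46 to 4.05. At 72 hr 2 were called lower and 1 higher, with a median of -0.17. Of 10 endothelial markers 9 were called lower in dispersed and 8 in myofiber-associated myoblasts at 72 hr, and 9 were lower in myofiber-associated than in dispersed myoblasts at 48 hr. The endothelial sum ranged from 16.72 to 17.12 (48 hr) and from 15.27 to 15.81 (72 hr) on dispersed arrays, and from 14.13 to 15.27 (48 hr) and from 13.47 to 13.69 (72 hr) on myofiber-associated arrays. No defining marker of either list was below background on all arrays of a group, and the part of these cells in the differences was not tested. Cox7a1 and Cox8b are also expressed in brown fat. Of 10 fat cell markers 6 were above background on all arrays of dispersed myoblasts at 48 hr and of myofiber-associated myoblasts at both times, and 4 in dispersed myoblasts at 72 hr, while the brown fat gene Ucp1 was not well above background on any array outside the myofiber-associated 48-hr group. The fat cell sum ranged from 15.69 to 16.38 (48 hr) and from 14.13 to 14.46 (72 hr) on dispersed arrays, and from 12.81 to 13.68 (48 hr) and from 11.51 to 11.95 (72 hr) on myofiber-associated arrays. Of the 5 markers tested, Fabp4, a fatty acid binding protein also found in endothelium, was called lower over time in both cultures and Dio2, a deiodinase, was called higher in dispersed myoblasts. Between the cultures 2 of the 5 were called higher and 2 lower in myofiber-associated myoblasts at 48 hr, with differences from -2.98 to 6.54. At 72 hr 2 were called higher and 1 lower, with differences from -3.30 to 4.26. The part of fat cells in the differences was not tested.

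Subunits encoded by mitochondrial DNA were lower at 72 hr in dispersed myoblasts. This list of 13 genes was added after the gene names of the array had been read. At 72 hr 10 of the 13 were called lower and 1 higher, beside 6.35% and 7.38% of all genes. Their median log2 difference was -0.88, where the widely expressed nuclear members had a median of 0.06. ND5 differed by -1.66, ND4L by -1.53 and ATP8, a subunit of ATP synthase, by -1.17. COX2 differed by -0.15 and COX1 by -0.29, neither called. ND6, the one subunit gene read from the other strand of mitochondrial DNA, rose by 0.70. In myofiber-associated myoblasts none of the 13 was called by limma, none had an unadjusted p under 0.05, and the median was -0.18. The difference between the cultures was called for 1 of them, ND2, at -0.95 with an adjusted p of 0.00805, and 10 of the 13 had an unadjusted p under 0.05. At 72 hr 11 of the 13 were called higher in myofiber-associated myoblasts and 1, ND6, lower, beside 11.6% and 15.6% of all genes. At 48 hr 1, ND1, was called higher, beside 16.1% of all genes. The array's annotation places the ND3 probe on chromosome 1.

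**Figure D5:**
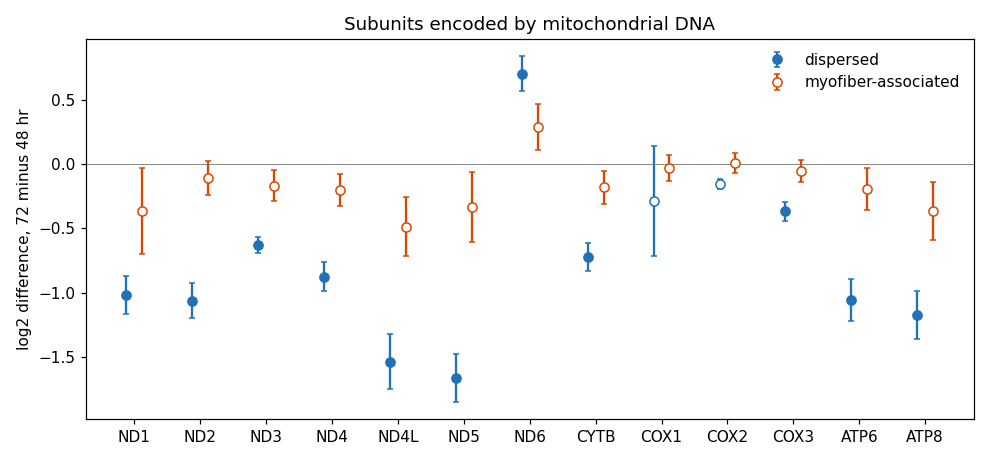
Log2 difference between 72 and 48 hr, with its SE from limma, of the 13 subunit genes of mitochondrial DNA in dispersed and myofiber-associated myoblasts, with filled points for an adjusted p under 0.01. In dispersed myoblasts 12 of the 13 lie below 0, ND5 lowest at -1.66, and ND6 lies above 0, while the myofiber-associated points lie between -0.49 and 0.29.

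Other genes of mitochondrial energy metabolism were read from fixed lists. Of all genes 7.38% were called higher and 6.35% lower over time in dispersed myoblasts, and 3.74% and 1.77% in myofiber-associated myoblasts. Between the cultures at 48 hr 16.1% of all genes were called higher in myofiber-associated myoblasts and 27.1% lower. Of 17 genes of the tricarboxylic acid cycle 1 was called over time in dispersed myoblasts, Idh2 by 0.31, and none in myofiber-associated myoblasts, where 7 had an unadjusted p under 0.05 in limma, while between the cultures at 48 hr 7 of the 17 were called higher in the myofiber-associated group and 2 lower. Of 12 fatty acid oxidation genes none was called over time in either culture by limma, with 4 at an unadjusted p under 0.05 in each, and 3 were higher in myofiber-associated myoblasts at 48 hr, led by Cpt1b, the muscle isoform of carnitine palmitoyltransferase 1, by 5.23. Of 39 tested assembly factors 2 were called higher and 1 lower in dispersed myoblasts, with Ndufaf3 at -0.34 and Tmem70, an ATP synthase assembly factor, at 0.28.

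Among 16 electron carriers and transporters Ckmt2, the mitochondrial creatine kinase of muscle, fell by 2.16 on the log2 scale in dispersed myoblasts and was higher by 5.36 in myofiber-associated myoblasts at 48 hr. Ucp2, an uncoupling protein, fell by 0.69 in dispersed and rose by 1.57 in myofiber-associated myoblasts, and the difference between the cultures, -2.26, was called with an adjusted p of 0.000478. Vdac1, the porin of the outer membrane, was called in that comparison in the other direction, at 0.59. Of 16 tested regulators of mitochondrial biogenesis 2 were called higher and 2 lower in dispersed myoblasts, beside 7.38% and 6.35% of all genes. Ppargc1a, the coactivator PGC-1 alpha, rose by 0.80, from 8.31 to 9.12, and Perm1, a muscle regulator downstream of it, fell by 1.84. None was called over time in myofiber-associated myoblasts by limma, where 6 had an unadjusted p under 0.05.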

How the data were processed

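RNA of 16 myoblast preparations was hybridized to one-color Agilent arrays, and probe positions follow mm9 in the file headers. The deposited scanner files hold intensity values that the authors' scanner software (Feature Extraction) had background-subtracted and detrended. A further deposited table gives log2 values made by the authors with limma (loess, then quantile), in which every 72-hr array is relative to the 48-hr mean of its culture. It served as an alternative, in which only the 72-hr ratios were fitted. The spread of the 48-hr arrays did not enter the error of that fit. Here outlier spots were left out of the log2 processed signals, loess (span 0.3, 4 iterations) was run against the mean of the culture's 48-hr arrays, quantile normalization followed over 16 arrays, identical probes were averaged and the brightest probe stood for a gene. Genes with a median log2 signal of at least 5 and 2 values in each group were tested. The study's methods name samr for the test, in whose place limma 3.58.1 in R 4.3.3 was used, as a two-sided test whose p-values were adjusted by Benjamini-Hochberg across the 20237 tested genes. Called means an adjusted p under 0.01. Differences are log2 with the later time minus the earlier, or myofiber-associated minus dispersed at a given time. The difference between the cultures, the log2 of the comparative ratio, is the dispersed change over time minus the myofiber-associated change. The number of arrays, 4 a group, limits the precision.

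Each culture was fitted on its 8 arrays, the difference between the cultures on 16, and each time on 8. Isoform pairs were compared by exact permutation, with an unadjusted p under 0.05 as the threshold. On simulated data limma recovered 58.5% of genes changed by 1 on the log2 scale in the dispersed comparison and 61.5% in the myofiber-associated one, of 200 changed among 20209 genes. The simulation gave every group of a gene the same SD, pooled over the 4 groups. In the data the median SD was 0.095 (48 hr) and 0.102 (72 hr) in dispersed and 0.215 and 0.180 in myofiber-associated groups. The simulated shares therefore cannot show how recovery differs between the cultures. Alternatives were other background, scaling, filter and probe choices, the slide row as a block, 1 fit of 16 arrays, the deposited ratios and each array left out. Members and gene lists were chosen with earlier results of these data known. Named genes were isoforms and paralogs on fixed lists, the 4 largest called rises and falls of members in each comparison and the 3 largest called changes of other lists. Further subunits of complexes I, III, IV and V, fiber genes and vessel markers were named after their values were seen.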

Additional observations from a re-analysis of the deposited data

Results flagged for a closer look

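Among 80 groups of 4 arrays, the named members in the study's 4 groups, 5 held an array far from the other 3 by the gap to its nearest neighbor over the group's range, and chance alone flags about 1 in 20 such groups. Cox8b read 6.97 in dispersed replicate 8 of 72 hr, where the others lay between 7.76 and 7.85. Ndufa4l2 read 10.13 in dispersed replicate 5 of 72 hr, against 11.11 to 11.26. In that same array Cox7a2l, the supercomplex factor related to subunit VIIa, read 15.64, against 15.79 to 15.81. Atp5g3, a gene of the ATP synthase c ring, read 16.95 in dispersed replicate 1 of 48 hr, against 17.14 to 17.17. Atp5c1 read 16.02 in dispersed replicate 3 of 48 hr, against 15.94 to 15.95. No member was called in the difference between the cultures by limma.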

How the results depend on the processing

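No paired analysis was possible because the groups compared, over time within a culture or between cultures at 1 time, share no replicate number. Counts of called members depended on the setting. Over time in dispersed myoblasts the 5 calls became 8 with 75th percentile scaling or the deposited ratios, and 2 with no filter on low signal or 1 fit of 16 arrays. Calls of all genes, 1493 higher and 1285 lower, became 1872 and 1198, 1853 and 1875, 1065 and 980, and 390 and 605 in that order. In myofiber-associated myoblasts the 2 calls became 1 with no filter or with the slide row as a block, 8 with the deposited ratios and 12 with 1 fit of 16 arrays, which called Cox6a2, Cox7a1 and Cox8b there with adjusted p of 0.00515 to 0.00884. The same fit gave 44 calls between cultures at 48 hr in place of 28, with 3860 of all genes called higher and 6598 lower in place of 3262 and 5477. The deposited ratios gave 18 in place of 0 for the difference between the cultures, with 1634 and 2168 of all genes in place of 222 and 480. Over time in myofiber-associated myoblasts 1 fit of 16 arrays called 3381 and 2386 of all genes, and the deposited ratios 2198 and 1581, in place of 756 and 358. The fit of the deposited ratios left out the spread of the 48-hr arrays. The causes were not tested. With 1 array left out, the counts ran from 2 to 5 (dispersed), 1 to 3 (myofiber-associated), 0 to 9 (difference between the cultures), 17 to 46 (cultures at 48 hr) and 6 to 11 (cultures at 72 hr). The ratio of Cox6a2 to Cox6a1 in myofiber-associated myoblasts changed by -2.64 with normexp background, exact permutation p 0.0286. With 1 array left out it changed by -3.20 to -2.08, Cox7a1 over Cox7a2 by -2.58 to -1.61 and Cox8b over Cox8a by -3.08 to -2.02 there, and Cox8b over Cox8a by -2.21 to -1.72 in dispersed myoblasts. No called value changed direction. The differences between the cultures of Cox6a2 and Cox8b, not called in any setting, changed sign with 1 array left out, running from -0.23 to 0.73 and from -0.36 to 0.56 over the settings. Of the alternative values of named members 417 stayed on their side of the threshold, 33 lost a call and 4 gained one. Signals near background limit only Cox7b2 and Cox8c.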
